A study of Mus musculus with 81 samples.

Results

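Guanylate-binding proteins (GBPs) are large GTPases of the dynamin superfamily. The 10 mouse genes Gbp2, Gbp2b, Gbp3, Gbp4, Gbp5, Gbp6, Gbp7, Gbp8, Gbp9 and Gbp10 were followed here through macrophages with a conditional knockout of histone H3.3. They were taken as a family by gene symbol from the 54079 to 55450 genes annotated in each experiment. RNA-seq read counts were available from 81 libraries of 5 experiments, of which 79 could be placed in a group. WT cells came from C57BL/6 mice in which both H3.3 genes were floxed, written H3f3a fl/fl with H3f3b fl/fl. Conditional knockout cells (cKO) carried in addition LysM cre/cre, a knock-in of Cre into the Lyz2 gene that deletes floxed alleles in myeloid cells. Mice of both sexes were 8 to 10 weeks old. Bone marrow was cultured to macrophages (BMDMs) in L929-conditioned medium and harvested on days 3, 5 and 7, with 3 WT and 3 cKO libraries per day. On day 8, BMDMs were left untreated or given IFN-γ for 12 h, with 3 WT and 2 cKO libraries per treatment. In the antibody experiment, BMDMs were grown without antibody, with an IgG1 isotype control or with a monoclonal antibody to IFNAR1, the type I interferon receptor subunit, and lysed on day 6, with 3 libraries per genotype and arm. A further experiment held 3 sets of WT and cKO BMDMs and 3 double knockouts that carry the cKO alleles together with StingKO, MavsKO or Irf7KO, again with 3 libraries per group. Resident peritoneal macrophages of 3 WT and 3 cKO mice were isolated with a commercial kit and sequenced from a different library type (SMART-Seq v4).

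GBPs are among the most strongly interferon-inducible proteins of macrophages. They assemble as coats on pathogen-containing vacuoles and on cytosolic bacteria, where they help to expose lipopolysaccharide to caspase-11 and promote inflammasome activation. Gbp2, Gbp2b and Gbp5 end in a CaaX box, a prenylation motif that anchors the protein in membranes. Their transcription after interferon runs through GAS and ISRE promoter elements, and IRF1 is among the factors that act on the ISRE.

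The genes lie in 2 clusters (GENCODE vM21, mm10). On the plus strand of chromosome 3 are Gbp5 (chr3:142493978-142522344), Gbp7 (chr3:142530342-142550149), Gbp3 (chr3:142560026-142573209), Gbp2b (chr3:142594847-142619179) and Gbp2 (chr3:142620602-142638008). On the minus strand of chromosome 5 are Gbp8 (chr5:105014150-105139540), Gbp9 (chr5:105077630-105139539), Gbp4 (chr5:105115767-105139586), Gbp10 (chr5:105215699-105239533) and Gbp6 (chr5:105270702-105293698), and the first 3 of these overlap. Because only uniquely mapped reads were counted, near-identical sequence lowers a count. Of the 50-base stretches of Gbp10 transcripts, 84.1% also occur in another gene, mostly Gbp6, and for Gbp6 the share is 70.7%, mostly with the annotated gene Gm43302, which had 0 counts in all libraries. The counts of Gbp6 and Gbp10 are therefore uncertain, whereas the shares for the other 8 genes were between 1.44% and 18.1%.

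The promoters of the chromosome 3 genes are shown, at the start of each gene that has a short interferon-type motif nearby. The sequences are from RefSeq (GRCm38.p6), on the plus strand, from 250 bases before the transcript start to at most 20 bases into an annotated exon. They cover chr3:142496684-142496919 for Gbp5, chr3:142530086-142530335 for Gbp7, chr3:142559794-142560043 for Gbp3, chr3:142594597-142594846 for Gbp2b and chr3:142620413-142620621 for Gbp2. Capitals mark matches to GAAA, any 2 bases and a second GAAA (a pair of ISRE half-sites, read as a pair of TTTC where it lies on the minus strand) and to the palindrome TTCNNNGAA (a GAS core).
Gbp5: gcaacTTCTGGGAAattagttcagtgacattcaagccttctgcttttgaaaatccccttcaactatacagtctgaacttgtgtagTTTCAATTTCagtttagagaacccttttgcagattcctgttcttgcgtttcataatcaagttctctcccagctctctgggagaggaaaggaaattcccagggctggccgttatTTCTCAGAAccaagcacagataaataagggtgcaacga
Gbp7: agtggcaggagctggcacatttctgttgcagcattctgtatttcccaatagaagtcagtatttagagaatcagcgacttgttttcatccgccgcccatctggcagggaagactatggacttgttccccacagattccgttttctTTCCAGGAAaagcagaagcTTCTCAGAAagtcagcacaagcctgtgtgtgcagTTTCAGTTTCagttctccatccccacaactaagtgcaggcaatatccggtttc
Gbp3: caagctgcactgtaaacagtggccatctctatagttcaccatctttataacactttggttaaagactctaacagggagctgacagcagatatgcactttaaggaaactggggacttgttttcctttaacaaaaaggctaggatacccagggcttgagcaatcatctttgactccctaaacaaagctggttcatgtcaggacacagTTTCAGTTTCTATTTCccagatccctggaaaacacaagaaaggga
Gbp2b: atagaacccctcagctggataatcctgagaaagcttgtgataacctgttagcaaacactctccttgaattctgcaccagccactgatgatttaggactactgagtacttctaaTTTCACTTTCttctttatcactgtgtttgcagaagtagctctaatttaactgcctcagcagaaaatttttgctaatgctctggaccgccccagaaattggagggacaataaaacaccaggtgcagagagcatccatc
Gbp2: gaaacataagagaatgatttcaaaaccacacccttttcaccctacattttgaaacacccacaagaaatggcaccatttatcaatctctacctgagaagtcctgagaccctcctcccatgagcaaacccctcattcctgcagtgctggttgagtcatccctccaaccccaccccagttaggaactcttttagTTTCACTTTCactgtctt
Gbp3 has a second annotated start, whose window (chr3:142560106-142560355) held neither motif and is not printed. The Gbp5 window lies inside the GENCODE gene, which starts at chr3:142493978, and bases before that start were not examined. The 5 printed sequences were chosen because they held the ISRE-type match, so their count is not a result. The match was held by 2.98% of 32851 promoters of 250 bases, and Gbp3 held 2 overlapping copies. Gbp5 and Gbp7 each held 2 GAS-type matches, which 7.02% of promoters held, and both motifs together were in 0.332% of promoters. The ISRE-type match ended 50 bases before the RefSeq start in Gbp2, 44 in Gbp7, 128 in Gbp2b and 156 in Gbp5. In Gbp2 this match (chr3:142620604-142620613) lies inside the GENCODE gene, which starts at chr3:142620602. These matches describe letters in the sequence only. Promoters of Gbp4, Gbp6, Gbp8, Gbp9 and Gbp10 were not analysed here.

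Library sizes ranged from 3614967 to 45581528 counts. H3f3a was lower in every cKO group (on day 3, mean 54.9 counts per 1e6 counts (CPM) in WT and 15 in cKO). H3f3b was 234 CPM in WT and 202 CPM in cKO on day 3. Among the WT and cKO groups, it differed most in the antibody experiment (376 and 48.9 CPM without antibody). By the edgeR test used below, H3f3b was called lower in cKO than in WT in the 3 arms of that experiment only. The authors report that deletion of H3f3b varied and was partial in some cKO samples. Lyz2, disrupted by the Cre knock-in, was 10700 CPM in WT and 12.0 in cKO on day 3. All cKO and double knockout groups carried Cre and had low Lyz2, and WT carried no Cre. In comparisons with WT, H3.3 loss cannot be told apart from Cre or from loss of Lyz2. All 8 macrophage markers had counts in every group, which does not show that other cells were absent. On day 3 these markers summed to 3160 to 4830 CPM in WT and 3180 to 3950 CPM in cKO. Neutrophil markers on day 3 summed to 1580 to 3040 CPM in WT and 2730 to 4210 CPM in cKO. Their part in the Gbp values was not tested. Some libraries stood apart and are named beside the results they touch: cKO day 5 replicate 1, WT replicate 1 of sets 1 and 3, and cKO IFN-γ replicate 1, the shallowest library, with 57.1% of its reads unmapped. Replicates are called biological by the labels. The p-values weigh a difference against the spread between replicates, estimated over all groups of an experiment. In bulk samples, fewer cells expressing a gene and less RNA per cell cannot be told apart.

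The first question was when during BMDM differentiation the Gbp genes separate by genotype. On day 3 all tested members were low in WT and higher in cKO, on day 5 most still were, and on day 7 the genotypes overlapped for 5 of 8 members. Gbp2 measured 2.45, 1.58 and 1.52 CPM in WT on day 3 and 45.5, 23.6 and 35.9 CPM in cKO. Gbp3, its neighbour on chromosome 3, measured 1.5, 2.23 and 2.36 against 41.3, 25.7 and 38.8 CPM. Gbp9, on chromosome 5, measured 1.09, 0.997 and 1.35 against 40.5, 33.8 and 43.8 CPM. For all 3 genes the lowest cKO library was far above the highest WT library. Gbp4 was near zero in WT, at 0.136, 0.117 and 0.899 CPM, and reached 12.4, 10.7 and 12.8 CPM in cKO. Gbp5, which promotes NLRP3 inflammasome assembly, measured 0.409, 0.352 and 0.168 CPM in WT and 11, 5.27 and 11.3 CPM in cKO. Gbp6 had counts in only 1 of 3 WT libraries (0.0682 CPM) and 3.35 to 6.59 CPM in cKO. Summed over the 10 genes, the family made up 8.25 to 10.1 CPM in WT and 144 to 209 CPM in cKO.

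By edgeR's quasi-likelihood test with Benjamini-Hochberg adjustment over all genes, 8 of 8 tested Gbp genes were higher in cKO on day 3, where 6% of the 15955 genes tested were. Gbp2b and Gbp10 were too low to be tested. Here and below, shares of all genes are given for this main fit only. Counts from other fits, or with libraries left out, show only how the calls depend on the processing. The log2 fold change was 4.25 ± 0.86 (SE) for Gbp2 (adjusted p = 0.00533), 4.10 ± 0.77 for Gbp3 (adjusted p = 0.00318) and 5.09 ± 0.70 for Gbp9 (adjusted p = 0.000336). It was smallest for Gbp7 (3.66 ± 0.71) and largest for Gbp6 (7.49 ± 1.42), and the median over the 8 genes was 4.89, against 0.04 over all genes. Per kilobase of exon, Gbp2, Gbp7 and Gbp3 led in WT (0.743, 0.695 and 0.621 CPM per kb) and Gbp2, Gbp3, Gbp7 and Gbp9 in cKO (14, 10.8, 8.86 and 7.70 CPM per kb), and neighbours within each of these runs overlapped between libraries. B cell markers differed in the same direction: 5 of 5 were higher in cKO on day 3, with summed levels of 11.6 to 12.7 CPM in WT and 24.9 to 52.9 CPM in cKO, and their part in the Gbp values was not tested.

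**Figure D1:**
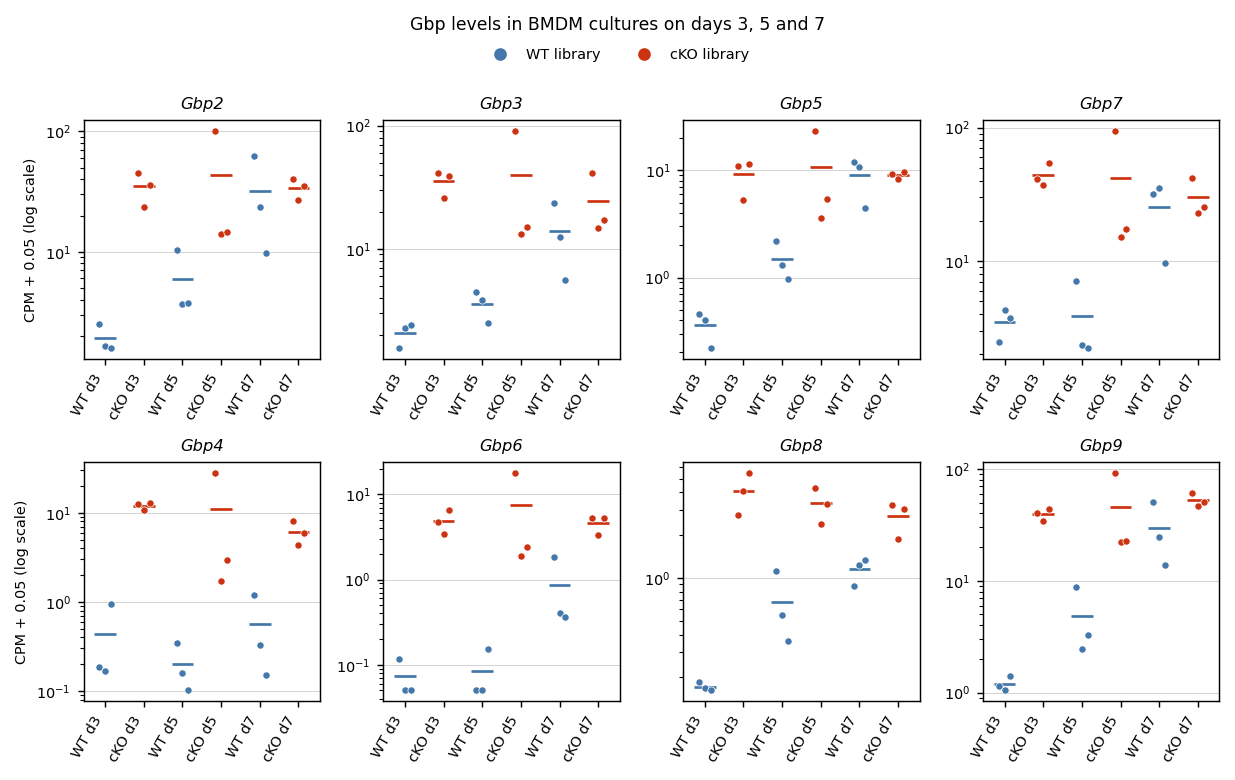
CPM of 8 Gbp genes (y axis, log scale, 0.05 added) in WT (blue) and cKO (red) cultures on days 3, 5 and 7 (x axis). Points are single libraries, 3 per group, and bars are group means. For all 8 genes the cKO libraries lie above the WT libraries on day 3, and on day 7 the groups overlap for all but Gbp4, Gbp6 and Gbp8.

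On day 5, 7 of 8 Gbp genes were higher in cKO (2.46% of all genes), with log2 fold changes from 2.40 (Gbp8) to 7.38 (Gbp6), and Gbp2 had 2.87 ± 0.76 (adjusted p = 0.0511). Much of the size came from 1 library. Gbp2 measured 101 CPM in cKO replicate 1 but 13.9 and 14.5 CPM in the other two, against 10.3, 3.65 and 3.71 CPM in WT. In the same library the neutrophil markers summed to 1740 CPM, against 587 and 504 CPM in the other cKO libraries, and their part was not tested. Without this library, the 4 chromosome 5 genes were still called (Gbp4 3.89, Gbp6 5.59, Gbp8 2.19 and Gbp9 2.25 on the log2 scale) and the 4 chromosome 3 genes were not (1.29 to 2.08), and without WT replicate 2 or WT replicate 3 the count was 2. When only the 2 day 5 groups were fitted, 1 of 8 genes was called, Gbp6, and the calls of Gbp4, Gbp8 and Gbp9 were lost too. Stromal marker sums separated by genotype on this day, at 13.2 to 42.3 CPM in WT and 67.6 to 95.4 CPM in cKO, as did dendritic cell marker sums, at 2.33 to 3.65 and 3.83 to 7.05 CPM. No marker of either list was called, with 3 tested in each, and their part was not tested.

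On day 7, Gbp2 measured 62.5, 23.4 and 9.72 CPM in WT and 40.1, 26.8 and 35.3 CPM in cKO, so that the groups overlapped. Gbp5, at 12.0, 10.6 and 4.45 against 9.18, 8.20 and 9.60 CPM, also overlapped. Gbp4 did not, at 1.15, 0.280 and 0.103 CPM in WT and 8.06, 4.28 and 5.87 CPM in cKO. The edgeR test called 0 of 8 genes, where 1.82% of all genes were called in either direction. An unadjusted edgeR p under 0.05 was held by 3 of 8, and by 2653 of all 15955 genes tested. DESeq2 called 3 of 8. Same-numbered WT and cKO libraries of this day deviated together, and a fit that blocked on that number called 2 genes, Gbp4 (log2 fold change 3.76, adjusted p = 0.0252) and Gbp6 (2.70, adjusted p = 0.0305). Without WT replicate 1, whose Gbp2 level was the highest, these same genes were called. On day 7 too, stromal marker sums (4.38 to 40.5 CPM in WT, 86.4 to 125 CPM in cKO) and dendritic cell marker sums (1.83 to 2.45 and 2.47 to 3.46 CPM) did not overlap, and their part was not tested. The median over the chromosome 3 genes was 0.17 on the log2 scale, and over the chromosome 5 genes 1.86.

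The change of the genotype difference from day 3 to day 7 was negative for all 8 genes, from -1.37 (Gbp4) to -5.06 (Gbp6). None passed the adjusted threshold in edgeR (0.0439% of all genes did). Of the 8, 7 had an unadjusted edgeR p under 0.05, as did 2491 of all 15955 genes tested, and DESeq2 called 7. Within WT, the log2 difference from day 5 to day 7 was 2.45 ± 0.75 for Gbp2 and 2.64 ± 0.58 for Gbp9 (adjusted p = 0.0761). EdgeR called 0 of 8 genes (0.150% of all genes in either direction). DESeq2 called 5, and 6 had an unadjusted edgeR p under 0.05, against 2777 of all 15955 genes tested. From day 3 to day 5 in WT, edgeR likewise called 0 of 8 (2.91% of all genes), and DESeq2 called 3. An unadjusted edgeR p under 0.05 was reached by 3 of 8, against 3316 of all genes tested. Within cKO, edgeR and DESeq2 called 0 of 8 genes from day 3 to day 5 (4.89% of all genes) and from day 5 to day 7 (0.0501%). No member had an unadjusted edgeR p under 0.05 in either step, where 3043 and 845 of all genes did. The family sum was 13 to 34.1 CPM in WT on day 5 and 44.8 to 184 CPM on day 7, and 73.6 to 452 and 128 to 210 CPM in cKO.

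Regulators of the family and related genes were read in the same libraries. Of 17 tested genes of interferon signalling, 9 were higher and 1 lower in cKO on day 3. The activators Irf1 (log2 fold change 1.61), Stat2 (2.83) and Irf9 (1.75) were among the higher genes, and Irf8 was not (0.01). Ifnb1, which encodes interferon-β, had 73 counts over the 3 cKO libraries of day 3 and 1 count over the WT libraries. Ifng had 0 counts in all 18 libraries of the time course. On day 7, 0 of these 17 genes were called by edgeR, with Irf1 at -0.12. The immunity-related GTPases, another interferon-inducible GTPase family, had 6 of 7 tested genes higher on day 3 (Iigp1 7.15, Igtp 3) and 0 of 7 on day 7. Among 10 inflammasome genes linked to GBPs, 3 were higher on day 3, namely Casp4, which encodes caspase-11 (2.28), Aim2 (0.77) and Il18 (0.64). None of 10 genes of the ATG8 conjugation system, which recruits GBPs to vacuoles, were called on day 3.

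**Figure D2:**
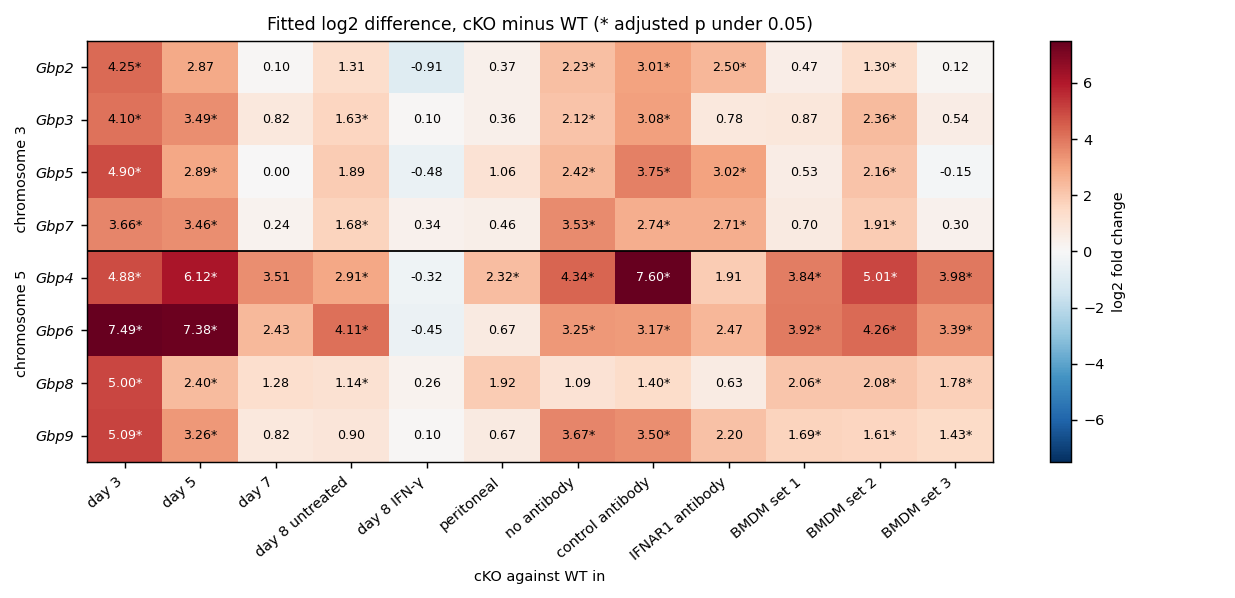
Fitted log2 fold change of cKO over WT for 8 Gbp genes (rows, chromosome 3 above and chromosome 5 below the line) in 12 genotype comparisons (columns). Red is higher in cKO and an asterisk marks an adjusted p under 0.05. All 8 genes carry an asterisk on day 3 and none on day 7 or after IFN-γ, and only the chromosome 5 genes carry one in sets 1 and 3.

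In untreated day 8 BMDMs, 5 members of both clusters were higher in cKO. Gbp4 measured 0.878, 0.637 and 0.350 CPM in WT and 4.46 and 4.89 CPM in cKO. Gbp6 measured 0.110, 0.319 and 0.175 against 2.84 and 4.6 CPM. Gbp2 measured 10.8, 14.1 and 11.2 against 28 and 31.5 CPM. The groups did not overlap for any of the 3 genes. Of 10 genes, 5 were called higher (0.558% of all genes): Gbp3 (1.63 ± 0.21), Gbp7 (1.68 ± 0.21), Gbp4 (2.91 ± 0.50), Gbp6 (4.11 ± 0.46) and Gbp8 (1.14 ± 0.17), on the log2 scale. Gbp2 had 1.31 ± 0.27 (adjusted p = 0.0808), Gbp5 1.89 ± 0.46 and Gbp9 0.90 ± 0.22 (both adjusted p = 0.172). Gbp2b and Gbp10 had 0 counts in all 5 libraries. The share of all genes above belongs to the main fit, and none is given for the alternative fits that follow. The count of called genes was 3 without WT replicate 2 or WT replicate 3, 1 without cKO replicate 1, 2 without cKO replicate 2, and 8 with DESeq2.

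IFN-γ raised every Gbp gene in both genotypes, and the order of the levels changed. Gbp2 reached 7920, 9900 and 8480 CPM in WT and 3310 and 6000 CPM in cKO. Gbp4 reached 707, 797 and 630 CPM in WT and 255 and 886 CPM in cKO. Gbp9, already at 33.5, 43.8 and 36.3 CPM in untreated WT, reached 524, 579 and 475 CPM. Each treated library was above each untreated library of its genotype. Gbp2b, from 0 counts, reached 48.0, 77.1 and 67.7 CPM in WT and 50.7 and 46.1 CPM in cKO. Against a floor of 3 counts over the untreated group, Gbp2b was at least 642-fold higher in WT and at least 364-fold higher in cKO, and Gbp10, at 6.62 to 9.43 and 9.78 to 10.9 CPM, at least 83.2-fold and 77.6-fold higher.

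All 10 genes passed the test in WT (19.5% of all genes were called higher) and all 10 in cKO (17.5%). Among the genes with counts before treatment, the log2 response in WT ran from 3.80 ± 0.22 for Gbp9 and 4.66 ± 0.17 for Gbp8 to 9.51 ± 0.35 for Gbp2, 9.74 ± 0.47 for Gbp6 and 10.15 ± 0.57 for Gbp4. In cKO it ran from 3 ± 0.26 for Gbp9 to 7.29 ± 0.39 for Gbp2. Per kilobase, Gbp9 led in untreated WT BMDMs (7.40 CPM per kb), followed by Gbp2 (4.83), then Gbp7 and Gbp3 (1.88 and 1.86, overlapping), Gbp8 (1.31), Gbp5 (0.460), and Gbp4 and Gbp6 (0.0836 and 0.0476, overlapping). After IFN-γ, Gbp2 stood at 3520 CPM per kb, Gbp3 at 219, and Gbp5, Gbp9, Gbp4 and Gbp7 at 123, 103, 95.7 and 94.4, each overlapping the next, above Gbp6 (43.5), Gbp8 (33.0), Gbp2b (22.8) and Gbp10 (4). Gbp2 then held 70.9% of all counts of the 10 genes. Regulators moved too: 12 of 16 tested were higher and 1 lower in WT, with Irf1 at 36.0 to 43.3 CPM before and 1100 to 1360 CPM after IFN-γ. All 7 tested immunity-related GTPases were higher. The summed dendritic cell markers were 1.06 to 1.76 CPM before and 50.5 to 74.6 CPM after, and their part was not tested. Gbp11, annotated as a polymorphic pseudogene and not counted in the family here, averaged 56.1 CPM in treated WT cells and at most 3.24 CPM in the WT groups that had no IFN-γ.

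After IFN-γ no member was called between the genotypes. Of the 10 genes, edgeR called 0 in cKO against WT (5.48% of all genes in either direction), and DESeq2 called 1. An unadjusted edgeR p under 0.05 was found for 1 of 10, against 3434 of all 13075 genes tested. Gbp2 had the lowest log2 difference, -0.91 ± 0.28 (adjusted p = 0.082). The response itself differed by -2.22 ± 0.39 for Gbp2 (adjusted p = 0.147), -3.22 ± 0.66 for Gbp4 (adjusted p = 0.239) and -4.56 ± 0.58 for Gbp6 (adjusted p = 0.0649), cKO minus WT on the log2 scale. In edgeR 0 of 10 passed (0% of all genes), and DESeq2 called 5. Of the 10, 8 had an unadjusted edgeR p under 0.05, against 1206 of all 13075 genes tested. The result turned on single cKO libraries. Without cKO IFN-γ replicate 1, 3 genes were called (Gbp2 -1.81, Gbp4 -2.56 and Gbp6 -4.02), and without replicate 2, 8 genes were (Gbp2 -2.74, Gbp4 -4.43 and Gbp6 -5.35), where the lone library is assumed to vary like the other groups. In the genotype comparison after IFN-γ the count was 1 without replicate 1 and 4 without replicate 2. Replicate 1 had a macrophage marker sum of 2960 CPM and a stromal sum of 349 CPM, against 5200 and 54.6 CPM in replicate 2. Between the treated genotypes, stromal sums (8.36 to 49.6 CPM in WT), dendritic cell sums (50.5 to 74.6 CPM in WT, 24.1 to 36.4 CPM in cKO), T and NK cell sums (0.965 to 3.13 and 3.77 to 4.83 CPM) and B cell sums (0.595 to 0.965 and 1.3 to 1.81 CPM) did not overlap, and the part of these markers was not tested.

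**Figure D3:**
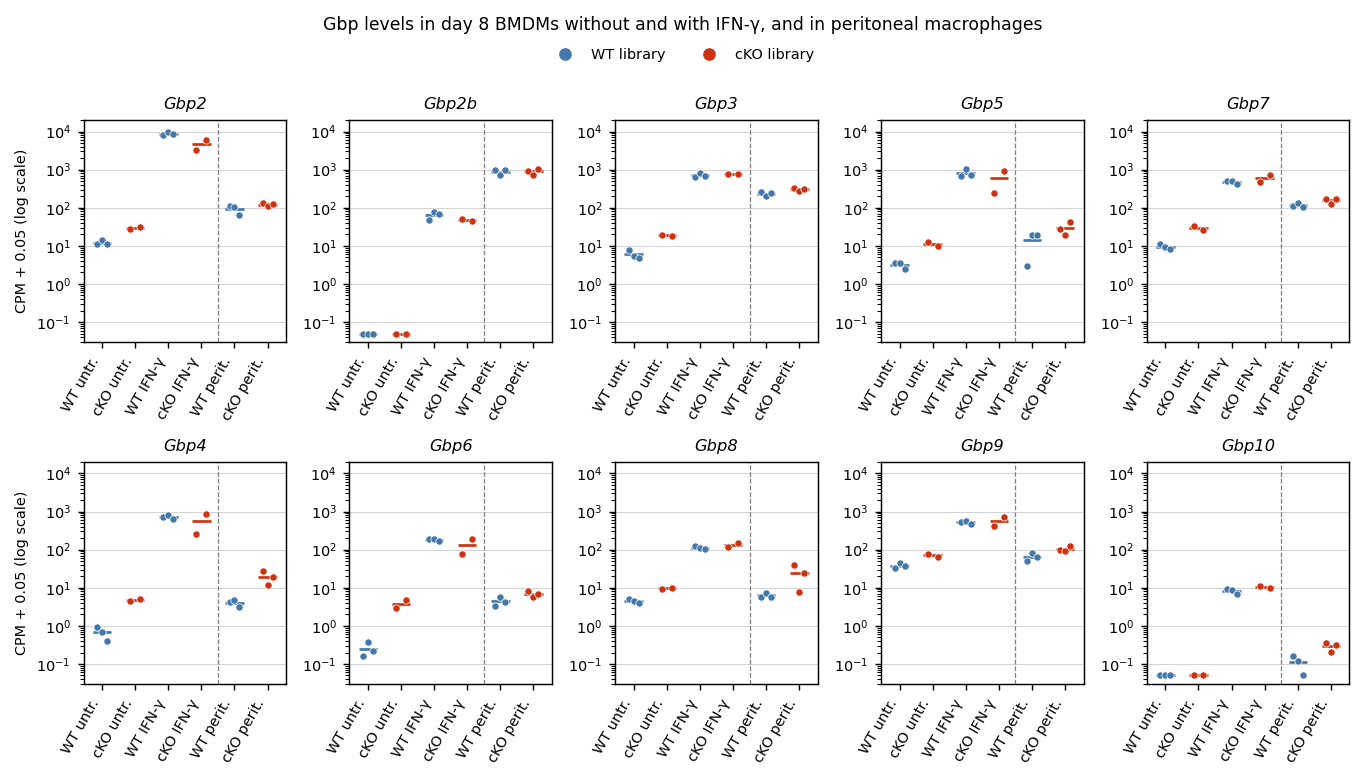
CPM of the 10 Gbp genes (y axis, log scale, 0.05 added) in day 8 BMDMs without and with IFN-γ and, right of the dashed line, in peritoneal macrophages, which were normalised separately. Points are single libraries of WT (blue, 3 per group) and cKO (red, 2 per day 8 group and 3 peritoneal), and bars are means. Gbp2b lies at 0 in untreated BMDMs and at 715 to 1040 CPM in peritoneal macrophages.

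In peritoneal macrophages Gbp2b had the highest level of the family, and Gbp4 was the one member called between genotypes. Gbp2b measured 978, 715 and 972 CPM in WT and 930, 741 and 1040 CPM in cKO, and the genotypes overlapped. It held 62.0% of the counts of the 10 genes in WT and 54.1% in cKO. Per kilobase in WT, Gbp2b (315 CPM per kb) was followed by Gbp3 (72.3), Gbp2 (37.6) and Gbp7 (23.1), of which only Gbp2 and Gbp7 overlapped, then Gbp9 (12.7), Gbp5 and Gbp8 (2.09 and 1.85, overlapping), Gbp6 (1.03), Gbp4 (0.534) and Gbp10 (0.0294). Across experiments these levels stand side by side only, since library type and normalisation differ. By genotype, Gbp4 measured 4.16, 4.61 and 3.14 CPM in WT and 28.1, 11.6 and 19.2 CPM in cKO. Gbp8 measured 5.51, 7.45 and 5.79 against 39.3, 7.76 and 23.8 CPM. Neither gene overlapped between genotypes. One of 9 tested genes was called higher (0.639% of all genes), Gbp4, with a log2 fold change of 2.32 ± 0.35 (adjusted p = 0.0233), and Gbp8 had 1.92 ± 0.51 (adjusted p = 0.178). The Gbp4 call was lost without WT replicate 2, WT replicate 3, cKO replicate 1 (1.95, adjusted p = 0.0642) or cKO replicate 3, and 2 genes were called without cKO replicate 2. Markers of T and NK cells summed to 5.96 to 26.2 CPM in WT and 10.2 to 41.4 CPM in cKO, with 0 of 6 tested called by edgeR. Dendritic cell marker sums did not overlap, at 19.7 to 26.6 CPM in WT and 10.4 to 15.9 CPM in cKO, with 1 of 2 tested called lower, and the part of both lists was not tested.

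The antibody experiment asked whether the higher expression in cKO depends on IFNAR1. Without antibody, Gbp9 measured 4.49, 1.32 and 1.47 CPM in WT and 37.0, 32.8 and 22.4 CPM in cKO. With control antibody it measured 1.68, 2.27 and 1.19 against 22.5, 20.4 and 16.7 CPM. With IFNAR1 antibody it measured 0.923, 0.251 and 2.17 against 4.06, 7 and 5.15 CPM, so that the cKO level was lower than with control antibody but still above the WT libraries of the same arm. For Gbp2, no such difference was seen. In cKO it measured 17, 13.6 and 8.20 CPM without antibody, 10.1, 15.4 and 11.5 CPM with control antibody and 11.9, 12.3 and 11.4 CPM with IFNAR1 antibody, and the 3 arms overlapped. Gbp8 in cKO measured 11.1, 10.7 and 8.51 CPM with control antibody and 2.54, 4.56 and 3.34 CPM with IFNAR1 antibody, without overlap. Gbp3 measured 9.19, 14.3 and 7.68 against 4.63, 4.09 and 3.62 CPM, also without overlap.

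In cKO, 3 of 8 genes were lower with IFNAR1 antibody than with control antibody (2.25% of all genes): Gbp9 (log2 fold change -1.89 ± 0.43, adjusted p = 0.0225), Gbp8 (-1.55 ± 0.38, adjusted p = 0.0274) and Gbp3 (-1.28 ± 0.35, adjusted p = 0.0471). Gbp4 had -1.71 ± 0.56 (adjusted p = 0.0958), Gbp6 -1.76 ± 0.65, Gbp2 -0.01 ± 0.34 and Gbp5 0.72 ± 0.55. With any 1 of the 6 libraries except cKO IFNAR1 antibody replicate 2 left out, 0 genes were called. The summed stromal markers were 157 to 291 CPM in the control arm and 41.2 to 84.8 CPM in the IFNAR1 arm of cKO, with 0 of 4 tested called, and the macrophage sums 3530 to 4060 and 4410 to 5160 CPM, with 0 of 8 called, and their part was not tested. In WT, edgeR and DESeq2 called 0 genes (edgeR, 11.2% of all genes in either direction). There 1 of 8 had an unadjusted edgeR p under 0.05, against 5817 of all 17191 genes tested. The difference of the antibody effect between genotypes was -2.30 ± 0.56 for Gbp3 (adjusted p = 0.326) and -1.29 ± 0.73 for Gbp9 (adjusted p = 0.922). None of 8 passed in edgeR (0% of all genes), and DESeq2 called 1. For this difference 2 of 8 had an unadjusted edgeR p under 0.05, against 990 of all 17191 genes tested. Control antibody against none called 0 of 8 genes with edgeR in cKO (2.09% of all genes) and in WT (9.74%), and 0 with DESeq2. In each genotype 1 of 8 had an unadjusted edgeR p under 0.05. Over all genes, 2062 in cKO and 5222 in WT did.

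Between genotypes, 7 of 8 genes were higher in cKO without antibody (4.01% of all genes), 8 of 8 with control antibody (3.43%) and 3 of 8 with IFNAR1 antibody (0.483%). Macrophage marker sums did not overlap without antibody (4750 to 5330 CPM in WT, 4160 to 4540 CPM in cKO) or with control antibody (4170 to 4370 and 3530 to 4060 CPM), nor did T and NK cell sums without antibody (1.93 to 4.05 and 1.04 to 1.71 CPM), and their part was not tested. The 3 genes called with IFNAR1 antibody were Gbp2 (2.50 ± 0.38, adjusted p = 0.0035), Gbp7 (2.71 ± 0.49, adjusted p = 0.0141) and Gbp5 (3.02 ± 0.65, adjusted p = 0.0359), all on chromosome 3. Gbp9 had 2.20 ± 0.52 (adjusted p = 0.0702), Gbp4 1.91 ± 0.85 and Gbp3 0.78 ± 0.37. The count under IFNAR1 antibody was 1 without WT replicate 1, WT replicate 2 or cKO replicate 2, and 0 when only these 2 groups were fitted. With control antibody it was 5 without WT replicate 1 or WT replicate 2. Gbp4 had 0 counts in the 3 WT control antibody libraries and 1.58, 0.904 and 1.45 CPM in cKO, at least 18.8-fold higher against a floor of 3 counts over the group. Of the regulators, Stat2 (-1.18) and Irf9 (-0.98) were lower with IFNAR1 than with control antibody in cKO.

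**Figure D4:**
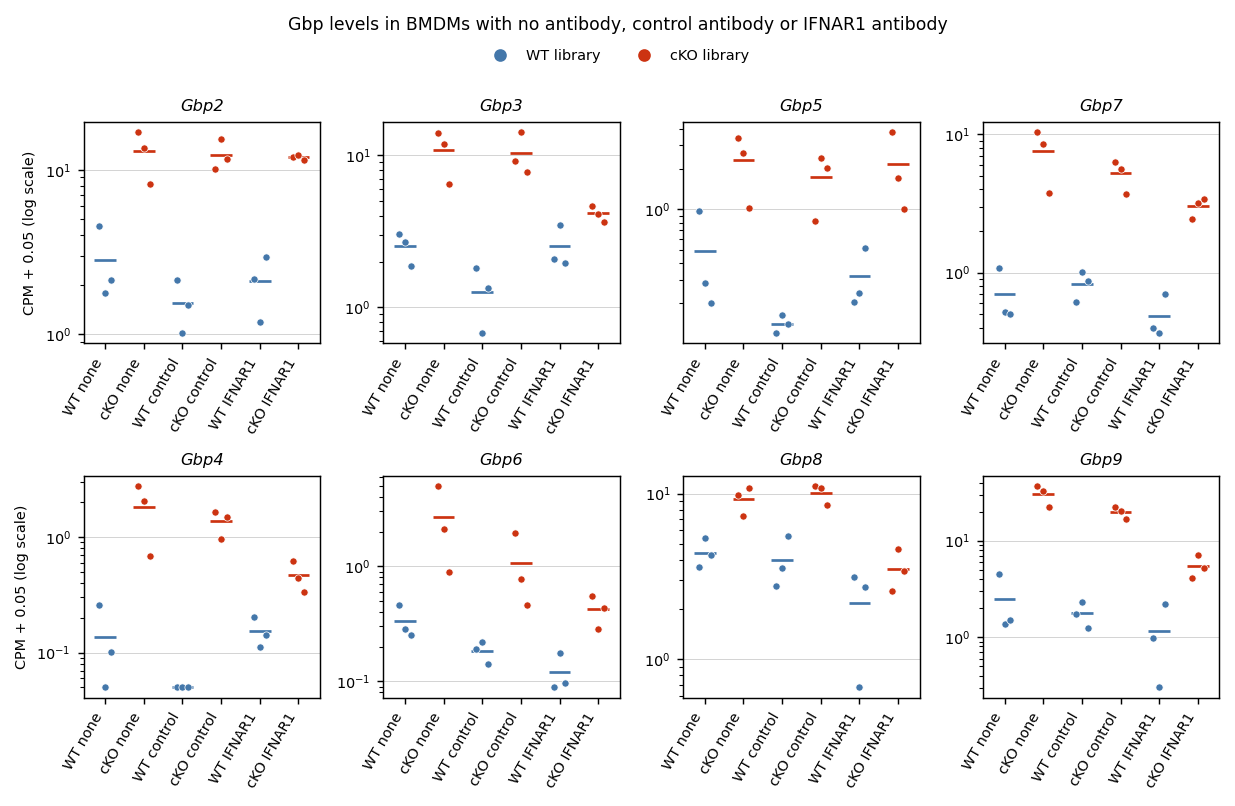
CPM of 8 Gbp genes (y axis, log scale, 0.05 added) in BMDMs of the 3 arms of the antibody experiment (x axis). Points are single WT (blue) or cKO (red) libraries, 3 per group, and bars are means. In cKO, Gbp9 lies at 16.7 to 22.5 CPM with control antibody and 4.06 to 7 CPM with IFNAR1 antibody, while the Gbp2 libraries of these arms overlap.

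The last experiment asked whether STING, MAVS or the transcription factor IRF7 is needed for the higher expression in cKO. In its WT and cKO sets the chromosome 5 genes were higher in cKO in each set, and the chromosome 3 genes were called in set 2 only. Gbp4 measured 0.737, 0.188 and 0.788 CPM in WT of set 1, 0.0505, 0.316 and 0.232 in set 2 and 0.756, 0.312 and 0.391 in set 3. In cKO it measured 8.22, 7.02 and 7.34 CPM, then 6.49, 7.27 and 5.73 CPM, and 8.46, 7.19 and 8.56 CPM. No WT library overlapped a cKO library. Gbp2 measured 31.8, 10.6 and 15.6 CPM in WT of set 1 and 30.5, 23.4 and 25.8 CPM in cKO. In set 2 it measured 6.52, 6.42 and 6.33 against 15, 19.7 and 12.9 CPM. In set 3 it measured 32.0, 11.9 and 15.5 against 22.8, 21.2 and 21.4 CPM. Gbp2 thus overlapped between genotypes in sets 1 and 3, where 1 WT library was high, and not in set 2.

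The test called 4 of 8 genes higher in set 1 (17.9% of all genes), 8 of 8 in set 2 (10.1%) and 4 of 8 in set 3 (17.1%), and in sets 1 and 3 these were the 4 chromosome 5 genes. Gbp4 had log2 fold changes of 3.84 ± 0.35, 5.01 ± 0.38 and 3.98 ± 0.34 in the 3 sets, and Gbp9 of 1.69 ± 0.17, 1.61 ± 0.17 and 1.43 ± 0.17. Gbp2 had 0.47 ± 0.31 (adjusted p = 0.265), 1.30 ± 0.33 (adjusted p = 0.00539) and 0.12 ± 0.31 (adjusted p = 0.797). Medians were 0.62, 2.03 and 0.21 for chromosome 3 and 2.95, 3.17 and 2.59 for chromosome 5. The calls on chromosome 3 turned on WT replicate 1: without it, 8 of 8 genes were called in set 1 and 6 of 8 in set 3, and its macrophage marker sum was 6790 and 6870 CPM, at the top of the ranges of 4300 to 6790 and 4000 to 6870 CPM, a link that was not tested. Markers of other cells moved with genotype as well. Neutrophil sums were 59.3 to 110 CPM in WT and 196 to 281 CPM in cKO of set 1 and 66.5 to 120 and 194 to 319 CPM in set 3, with 5 of 7 tested markers higher in each, and overlapped in set 2. Dendritic cell sums were 3.5 to 5.11 and 7.97 to 9.93 CPM in set 1, 1.44 to 2.41 and 4.56 to 4.76 CPM in set 2 and 4.53 to 5.49 and 7.6 to 11.1 CPM in set 3, with 3 of 5 higher in each. B cell sums were 2.56 to 6.85 and 7.6 to 10 CPM, 3.97 to 5.57 and 11.8 to 14.2 CPM, and 2.73 to 5.23 and 5.7 to 12.1 CPM, with 4, 2 and 3 of 5 higher. Stromal sums separated in set 3 (10.7 to 15.3 and 23.1 to 33 CPM) and macrophage sums in set 2 (6150 to 6190 and 5190 to 5570 CPM). The part of these markers in the Gbp values was not tested. Same-numbered WT libraries of sets 1 and 3 deviated from their group means together (r = 0.39, 0.32 and 0.14 over 18083 genes), so that these sets are not read as separate repeats of a result.

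The double knockouts were compared with the mean of the 3 sets, because the labels do not tie a set to a double knockout, and set and genotype cannot be told apart. The fit treats the libraries of sets 1 and 3 as independent, so its errors, p-values and counts do not allow for their shared deviations. Against the cKO of sets 1, 2 and 3 singly, the counts of called genes were 1, 5 and 2 for cKO:StingKO, 0, 0 and 1 for cKO:MavsKO and 0, 2 and 0 for cKO:Irf7KO. Against the WT of each set they were 7, 8 and 7, then 4, 8 and 4, and 6, 8 and 5. No share of all genes is given for these single-set comparisons, so the counts show only how the calls depend on the set. Tmem173, which encodes STING, averaged 5.52 CPM in the cKO:StingKO libraries and 72.0 to 88.1 CPM in the cKO sets, and Irf7 106 CPM in cKO:Irf7KO and 310 to 388 CPM in the cKO sets. Mavs averaged 37.5 CPM in cKO:MavsKO, against 38.9 to 49.9 CPM in the cKO sets, so its count does not check that label. In the cKO:StingKO libraries Gbp2 measured 28.8, 38.6 and 39.6 CPM, Gbp4 6.84, 11.5 and 9.91 CPM and Gbp9 59.4, 71.6 and 68.2 CPM. All 8 genes were higher than in the WT sets (20.5% of all genes), and 5 were also higher than in the cKO sets (19.1%): Gbp3 (0.88 ± 0.25), Gbp2 (0.77 ± 0.24), Gbp6 (0.59 ± 0.14), Gbp8 (0.48 ± 0.14) and Gbp9 (0.46 ± 0.13), on the log2 scale. The count against the cKO sets was 3 without cKO:StingKO replicate 3. In the same comparison 4 of 5 stromal markers were higher, with sums of 163 to 200 CPM against 23.1 to 69.3 CPM in the cKO sets and 10.7 to 85.1 CPM in the WT sets. T and NK cell sums were 7.25 to 8.66 against 4.27 to 7.08 CPM in the cKO sets. Neutrophil sums (241 to 252 CPM) and B cell sums (8.07 to 9.01 CPM) were above those of the WT sets, and the part of these markers was not tested.

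In the cKO:MavsKO libraries Gbp2 measured 17.2, 17 and 11.5 CPM, Gbp4 5.38, 7.03 and 5.07 CPM and Gbp9 44.9, 56.1 and 46.9 CPM. Against the cKO sets edgeR and DESeq2 called 0 of 8 genes (edgeR, 9.32% of all genes in either direction), with log2 differences from -0.51 to 0.03. Of the 8, 1 had an unadjusted edgeR p under 0.05, against 4044 of all 18083 genes tested. Against the WT sets 6 of 8 were higher (22.1%), including Gbp4 (3.94 ± 0.25), and Gbp2 had 0.17 ± 0.26 and Gbp5 0.34 ± 0.38. Stromal markers summed to 81.2 to 289 CPM here, above the cKO sets, while neutrophil sums (57 to 118 against 151 to 319 CPM) and dendritic cell sums (3.25 to 3.78 against 4.56 to 11.1 CPM) were below them. B cell sums, at 8.58 to 13.2 CPM, were above the WT sets, and the part of these markers was not tested. In the cKO:Irf7KO libraries Gbp2 measured 42.8, 26.7 and 25.1 CPM, Gbp4 3.85, 5.94 and 7.02 CPM and Gbp9 72.8, 59.8 and 52.4 CPM. Both tools called 0 of 8 genes against the cKO sets (edgeR, 10.6% of all genes in either direction), with log2 differences from -0.39 to 0.62. Of the 8, 4 had an unadjusted edgeR p under 0.05, against 4403 of all 18083 genes tested. All 8 were higher than in the WT sets (15.1%), from Gbp2 (1.22 ± 0.24) to Gbp4 (3.88 ± 0.26). Neutrophil sums (84.4 to 115 CPM), B cell sums (3.45 to 5.47 against 5.7 to 14.2 CPM) and macrophage sums (3910 to 4300 against 4410 to 5600 CPM) were below those of the cKO sets, with 7 of 7, 4 of 5 and 0 of 8 tested markers lower, and their part was not tested. H3f3a and H3f3b were also lower in cKO:Irf7KO than in the cKO sets. Their log2 differences were -0.91 ± 0.13 and -0.73 ± 0.14 (edgeR adjusted p = 5.46e-05 and 0.00131), and their part was not tested. Fitted with only the groups compared, the counts of called Gbp genes against the cKO sets were 2 for cKO:MavsKO and 3 for cKO:Irf7KO.

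**Figure D5:**
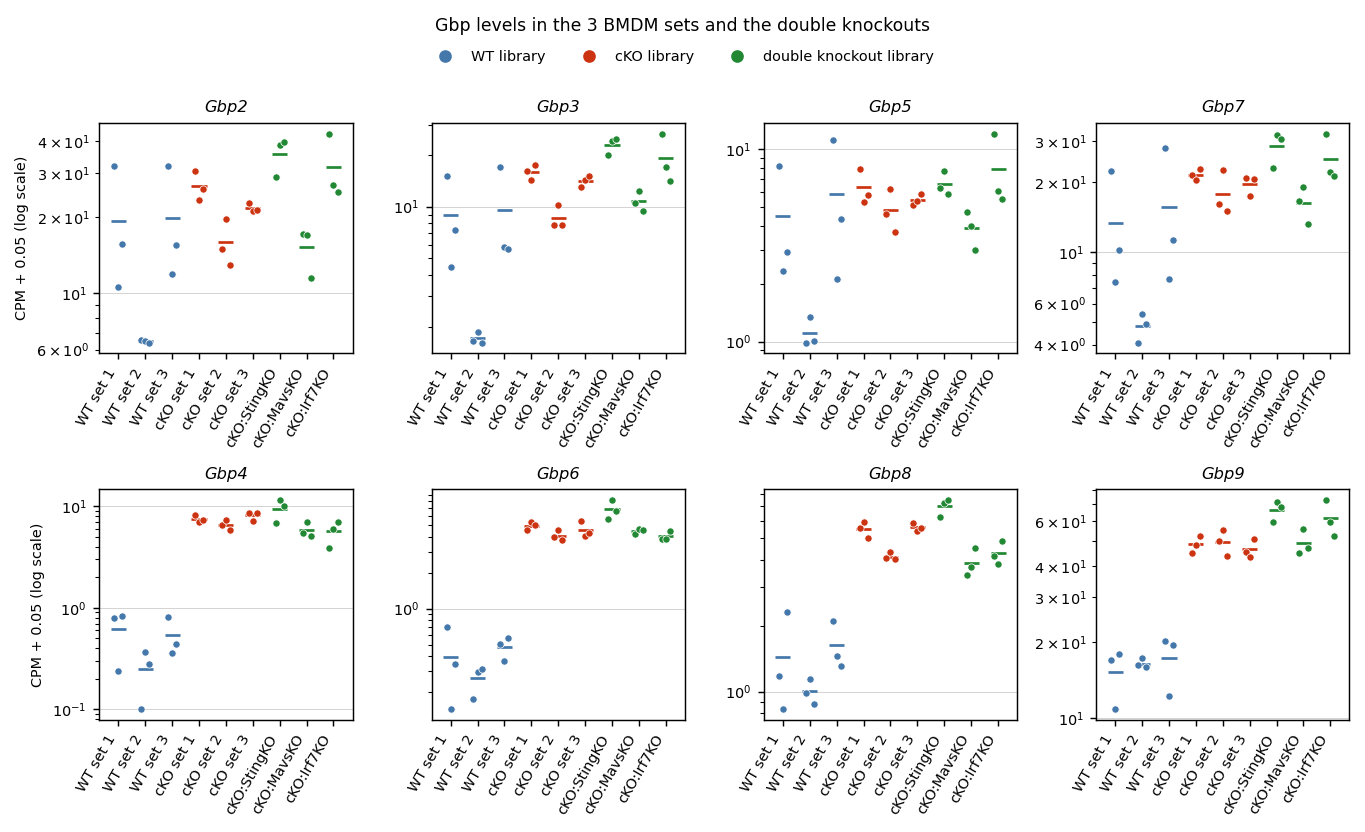
CPM of 8 Gbp genes (y axis, log scale, 0.05 added) in 3 WT sets (blue), 3 cKO sets (red) and the double knockouts (green). Points are single libraries, 3 per group, and bars are means. Gbp4 lies below 1 CPM in all WT libraries and at 3.85 to 11.5 CPM in all others, and 1 WT library of sets 1 and 3 is high for the chromosome 3 genes.

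Across the 79 libraries, after centring each gene within its experiment, log2 CPM of the 8 genes tested everywhere correlated with each other at r = 0.81 to 0.95, highest for Gbp4 with Gbp6 and for Gbp2 with Gbp5. Among the 11170 genes tested in all 5 experiments, those most like the mean of the 8 genes were Ifi47 (r = 0.97), Tnfsf10, Igtp and Iigp1 (0.96 each) and Ifih1, Gm12250, Herc6 and Nmi (0.95 each). Stat2 ranked 22 (0.93) and Irf1 ranked 255 (0.73). The libraries share the IFN-γ treatment and genotype contrasts, so these values are descriptions.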

How the data were processed

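The authors trimmed reads with cutadapt and aligned them to mm10 with STAR, which wrote the deposited read counts per gene (versions are not given in the sources used here). The unstranded counts of uniquely mapped reads were used, so reads from overlapping genes on opposite strands were not assigned. Rows naming no gene were left out of library sizes. Median shares of 4.26% to 6.01% of reads per experiment were ambiguous between genes, and counts on genes ranged from 3614967 to 45581528 per library.

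Each experiment was fitted separately with edgeR 4.0.16 in R 4.3.3: genes were kept by filterByExpr (minimum count 10, minimum total 15), scaled by TMM and tested with the quasi-likelihood test over all groups of that experiment, with Benjamini-Hochberg adjustment over all genes and a threshold of 0.05. The step was tested on simulated data. CPM were computed with TMM library sizes, and levels between genes were compared per kilobase of exon not shared with another gene. Double knockouts were compared with the mean of the 3 sets. The alternatives were DESeq2 1.42.0, RLE in place of TMM scaling, no filter, a filter at a mean of at least 1 CPM and a replicate block. Fits of only the groups compared, the strand-specific column and leaving out each library were also run. The day 8 libraries with conflicting labels were placed by title or by library name. For the sets, genes with the same identifier version and single sets as reference were used as well. Named genes were the 10 members, the fixed lists of regulators and related genes, and the 8 genes most like the members. The members and lists were chosen with earlier results of these data known. Same-numbered libraries deviated together (every r over 0.1) for the genotype comparison on days 3 and 7 and in peritoneal macrophages, for IFN-γ in WT, for day 7 against day 5 in cKO and for control against no antibody in WT. Between replicates of the same group, the smallest chi-square per degree of freedom was 3.33, so none of these were counted as 1 library. Libraries of different groups, such as those of sets 1 and 3, were not compared in this way. The treatment of 2 cKO libraries of day 8 was left unassigned because their labels conflict. The values of 1 regulator are not reported here.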

Additional observations from a re-analysis of the deposited data

Results flagged for a closer look

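Of the day 8 libraries, 2 from cKO BMDMs were left out of the main comparisons because the sample title and the library name gave opposite treatments. In the library titled untreated but named as IFN-γ-treated, all 10 Gbp genes had levels far above those of the untreated libraries: Gbp2 measured 6470 CPM, Gbp2b 45.2, Gbp3 776, Gbp5 901 and Gbp7 684 CPM. On chromosome 5, Gbp4 measured 1020 CPM, Gbp6 219, Gbp8 165, Gbp9 721 and Gbp10 13.9 CPM. This library entered no comparison of the main fit, only the alternative fits that placed it by title or by library name.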

How the results depend on the processing

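No result changed direction among called values under any alternative that was run. No share of all genes is given beside the counts in this section, which show only how the calls depend on the processing. Counts of called Gbp genes, other than when leaving out a library, stayed within 1.5 times the reported count in 215 cases and moved in 38, and the cause of these moves was not tested. With DESeq2 they were 3 on day 7, 7 for the day 7 minus day 3 difference, 3 and 5 for WT day 5 against 3 and 7 against 5, 8 in untreated and 1 in IFN-γ-treated day 8 cells, 5 for the difference in IFN-γ response, 2 in peritoneal macrophages and 1 for the difference in IFNAR1 effect. With no filter they were 3 for the day 7 minus day 3 difference, 2 for WT day 7 against 5, 8 and 1 on day 8, 6 for the IFN-γ response difference and 3 in peritoneal macrophages. With the replicate number as a block they were 2 on day 7, 4 for day 7 minus day 3, 4 for WT day 7 against 5, 3 in untreated day 8 cells, 1 for the IFN-γ response difference and 1 for control against no antibody in cKO. Where libraries pair, the block changed no other count by over 1.5 times. With only the groups compared they were 1 on day 5, 5 for day 7 minus day 3, 1 for WT day 5 against 3, 8 in untreated day 8 cells, 0 with IFNAR1 antibody, and 2 and 3 for cKO:MavsKO and cKO:Irf7KO against cKO. Placing the unassigned libraries by title gave 0 in untreated cells and 0 for IFN-γ in each genotype, and by library name 1 for the response difference. The strand-specific column gave 1 for cKO:Irf7KO against cKO. Against a single set, cKO:StingKO gave 1 (set 1) and 2 (set 3), cKO:MavsKO 1 (set 3) and cKO:Irf7KO 2 (cKO set 2) and 5 (WT set 3).

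Leaving out 1 library gave 2 to 8 on day 5, 0 to 2 on day 7, 0 to 3 for day 7 minus day 3, 0 to 4 for WT day 7 against 5, 0 to 1 for cKO day 5 against 3, 1 to 4 in untreated and 0 to 4 in treated day 8 cells, 0 to 8 for the response difference, 0 to 2 in peritoneal macrophages, 5 to 6 with control antibody, 1 to 4 with IFNAR1 antibody, 0 to 2 for IFNAR1 against control antibody in cKO, 4 to 8 in set 1 and 3 to 6 for cKO:StingKO against cKO. Single libraries decided the count for day 7 minus day 3 (1 when WT day 7 replicate 1 was omitted, 3 when it was replicate 3), for WT day 7 against 5 (3 omitting replicate 1 of WT day 5, 4 omitting replicate 3 of WT day 7) and for cKO day 5 against 3 (1 without cKO day 5 replicate 1). Depth limits Gbp2b and Gbp10 in BMDMs without IFN-γ, which had too few counts to test outside day 8, and reads shared with near-identical genes limit Gbp6 and Gbp10.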

Other observations

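The other library with conflicting labels, titled IFN-γ but named as untreated, had 22.8 CPM for Gbp2, 13.5 for Gbp3, 22.3 for Gbp7, 4.41 for Gbp4 and 57.8 for Gbp9, and 0 counts for Gbp2b. No group was assigned from these values.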
